A study of Mus musculus with 37 samples.

Results

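Brain cortex of mice carrying the Q331K change in TDP-43 was compared with WT cortex. The comparison took every cortex library whose genotype label was TDP-43Q331K (called Q331K here, 6 libraries) or WT (5 libraries), 11 of the 37 libraries of the series. They were taken by label and not by a measured value. This choice and that of the gene lists were made with earlier results of these data known. The mice were 10 months old, and total RNA was sequenced in bulk. The series also holds liver, and cortex with the genotypes TMEM106B-/- and TMEM106B-/-TDP-43Q331K (the combined genotype, 5 libraries each), and its question is what each change does to expression, alone and together. The labels give no strain, sex, zygosity or region of the cortex, and nothing in them states that the libraries are of separate animals. The p-values therefore rest on the spread between samples, which may be technical.

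TDP-43, encoded by Tardbp, is an RNA-binding protein of the nucleus that controls splicing, RNA stability and the level of its own messenger. Loss of nuclear TDP-43 and its aggregation in the cytoplasm mark most cases of amyotrophic lateral sclerosis (ALS) and a large share of frontotemporal dementia (FTD), and Q331K is a change in its C-terminal domain found in familial ALS. A knock-in places the change in the gene itself, so that the protein stays under its own promoter, in every cell type that expresses it.

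The deposited gene counts do not read single bases, so they cannot check the label at the changed codon.

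Tardbp RNA was slightly higher in Q331K cortex, and the groups did not overlap. Levels are in counts per 1 M library counts (CPM), with libraries scaled to each other by TMM. Tardbp (ENSMUSG00000041459, GRCm38 chr4:148612382-148627019) stood at 156, 158, 150, 157 and 165 CPM in the 5 WT libraries. In the 6 Q331K libraries its lowest, median and highest values were 170, 178 and 187 CPM, so every Q331K library lay above every WT library. The means were 157 ± 5.44 (SD, n = 5) and 178 ± 5.78 CPM (SD, n = 6), a log2 fold change of 0.18 ± 0.04 (SE), or 13.2% higher, with a 95% interval of 0.09 to 0.27. The gene did not pass in edgeR's quasi-likelihood test (unadjusted p = 0.00045, adjusted p = 0.431), and limma-voom with sample quality weights called it (adjusted p = 0.0461). Between the combined genotype and libraries labelled TMEM106B-/-, which share no library with this comparison, the log2 fold change of Tardbp was 0.07 ± 0.05, and the difference between both backgrounds had an unadjusted p of 0.0929 and an adjusted p of 0.999 in edgeR. In liver, Q331K against WT, it was -0.12 ± 0.11.

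Across the transcriptome the comparison called no single gene. Of 21248 genes tested, 0 passed an adjusted p of 0.05 in edgeR, and 1036 had an unadjusted p under 0.05, 480 lower and 556 higher in Q331K. Those are 4.88%, 2.26% and 2.62% of the genes tested. Other tools called a few: DESeq2 9 of 38705 genes (all genes with a count) and limma-voom 11 of 21248. At an unadjusted p under 0.05 they had 1188 and 1743 genes. The genes called by both were Fads2, Fam198b, Meaf6, P4ha3, Jun, Gm13844 and Gm49745, all of them among the 12 genes per direction with the smallest p in edgeR. All Q331K libraries lay below all WT libraries for 106 genes (0.499%) and above them for 75 (0.353%).

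The 12 genes of smallest p in each direction show the size of what was seen. Jun, a subunit of the AP-1 transcription factor, stood at 27.3, 28.3, 28.5, 26.6 and 26.4 CPM in WT and at 18.7, 20.9 and 23.9 (lowest, median, highest) in Q331K. All 6 Q331K libraries were below all WT libraries. Its log2 fold change was -0.38 ± 0.07 (adjusted p = 0.163 in edgeR). DESeq2 (adjusted p = 0.00847), limma-voom (adjusted p = 0.0186) and an edgeR fit of only the compared groups (adjusted p = 0.0494) called it. Of the 32 immediate early genes tested, Jun included, 17 were below 0 (48.6% of all genes were). The median was -0.01, with 2 at an unadjusted p under 0.05 (4.88% of all genes were).

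Mid1, a ubiquitin ligase of microtubules, was at 25.1, 22.2, 27.7, 17.7 and 15.1 CPM in WT and at 6.2, 10.2 and 11.5 in Q331K, with no overlap (-1.16 ± 0.24, adjusted p = 0.341 in edgeR and 0.0118 in DESeq2). The gene spans the boundary of the pseudoautosomal region in common laboratory mice, and a pseudogene copy (Mid1-ps1) is annotated, so its count is less certain than that of other genes at this level. Between the combined genotype and libraries labelled TMEM106B-/- Mid1 was at 0.50 ± 0.24, and the difference between the backgrounds was 1.66 ± 0.34 (unadjusted p = 0.000121, adjusted p = 0.715 in edgeR).

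Smaller shifts without overlap were seen for Rfc2, a subunit of the clamp loader of DNA replication (23.2 ± 0.88 CPM in WT, SD, n = 5, and 19.2 ± 0.73 in Q331K, SD, n = 6; -0.27 ± 0.06), for Gid4, a substrate receptor of a ubiquitin ligase (-0.31 ± 0.07), and for Atp1b3, a subunit of the sodium pump (67.6 ± 2.22 and 58.9 ± 0.82 CPM; -0.20 ± 0.05). Has1, a hyaluronan synthase, was 0.27 to 0.40 CPM in WT and 0 to 0.17 CPM in Q331K, a level at which a library holds only a few counts (-2.23 ± 0.47). Among the genes higher in Q331K, Meaf6, a subunit of histone acetyltransferase complexes, was 71.0 to 73.1 CPM in WT and 77.7 to 84.1 in Q331K (0.16 ± 0.03). P4ha3, a collagen prolyl hydroxylase, was 1.93 to 2.81 CPM in WT and 3.0 to 4.27 in Q331K (0.64 ± 0.15), and the phosphatase gene Ptpn13 was 19.5 to 23.2 and 25.2 to 29.2 CPM (0.30 ± 0.08). Adjusted p-values in edgeR for these 7 genes lay between 0.163 and 0.486. In libraries labelled TMEM106B-/-, without the Q331K change, Has1 (0.12 to 0.19 CPM) lay below WT and Ptpn13 (24.8 to 35.4) above it. P4ha3 was 2.63 to 4.76 CPM there, Rfc2 18.35 to 23.7, Gid4 47.0 to 53.6, Atp1b3 59.0 to 68.45 and Meaf6 72.9 to 76.3.

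**Figure D1:**
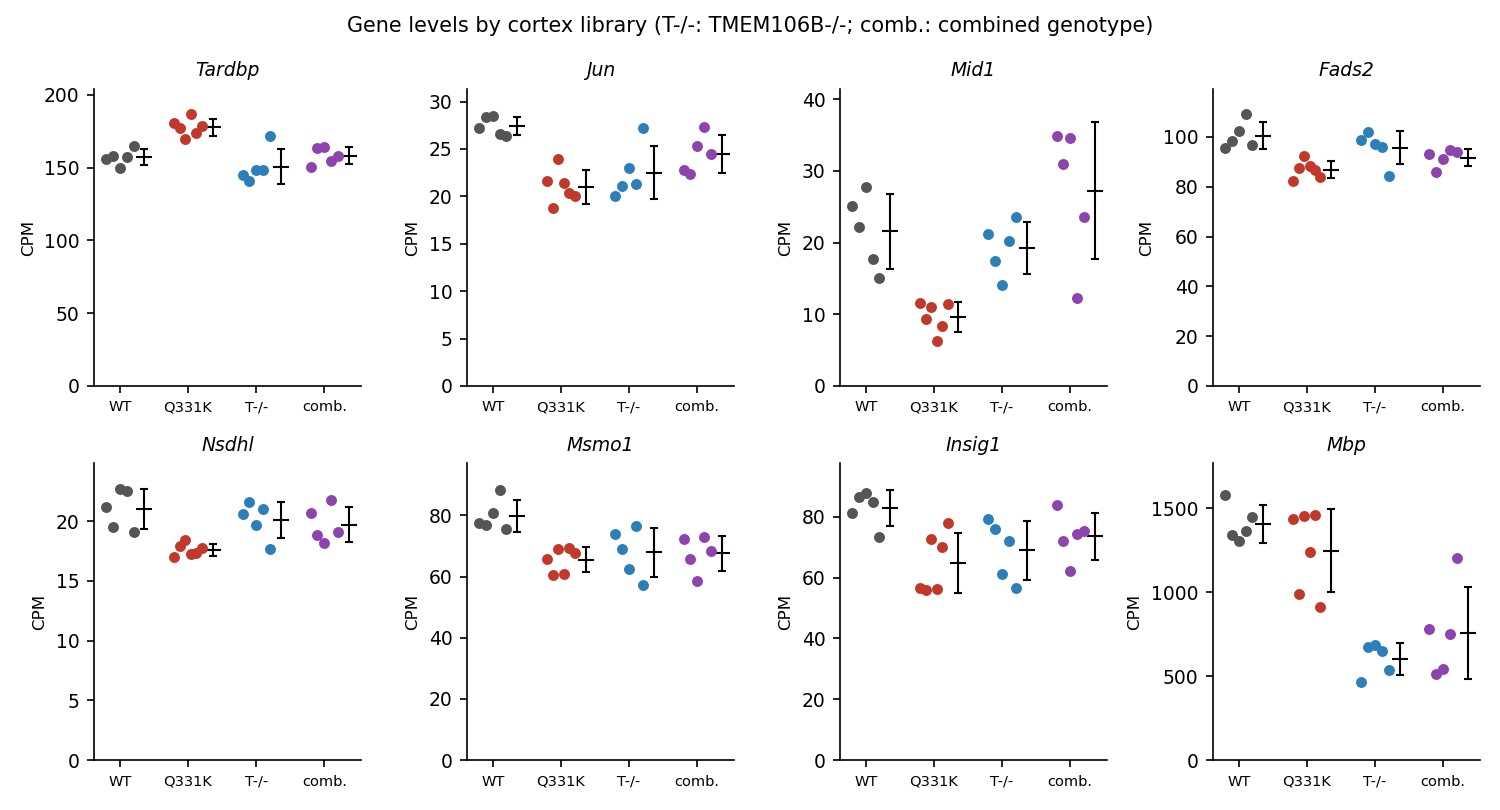
Levels of 8 genes (CPM, vertical axes from 0) in each cortex library of the 4 genotypes; points are libraries and the bars beside them are mean and SD. Tardbp, Jun, Mid1, Fads2, Nsdhl and Msmo1 show no overlap between Q331K and WT, Insig1 overlaps, and Mbp is low in 2 of the 6 Q331K libraries.

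The group of genes that stood apart from WT in Q331K cortex was the one for making and taking up cholesterol. Libraries of both other cortex genotypes also lay below WT in these genes on average. The brain makes its own cholesterol, since lipoproteins of the blood do not cross into it, and much of it goes into myelin and membranes. The pathway runs from acetyl-CoA through mevalonate and squalene to lanosterol and then to cholesterol. Its genes share regulation by SREBP2 (encoded by Srebf2), which is released when sterols are low, and by INSIG1, which holds SREBP2 back.

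All 25 of the 25 genes on this list were lower in Q331K than in WT, against 48.6% of all genes tested. None passed an adjusted p of 0.05 in edgeR (the smallest adjusted p was 0.415). At an unadjusted p under 0.05, 21 of the 25 were lower and 0 higher, against 2.26% and 2.62% of all genes, and 7 had every Q331K library below every WT library, against 0.499%. The median log2 fold change was -0.23, a fold of 0.852, against 0.00 for all genes. The largest difference was that of Fdps and the smallest that of Sc5d, 40.5% and 6.07% lower. Of 48 lists examined, this was the only one with more than 50% of its members at an unadjusted p under 0.05 and the only one whose library scores did not overlap between the groups, so it was picked out after its values were seen.

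To set libraries side by side, the log2 CPM of all members of a list was averaged within each library, and the WT average was subtracted (the list score). For cholesterol genes the 5 WT scores were -0.02, -0.04, 0.03, 0.10 and -0.08. The 6 Q331K scores were -0.36, -0.36, -0.13, -0.32, -0.18 and -0.19, all below the lowest WT score. The mean was -0.26 ± 0.10 (SD, n = 6). The summed level of the 25 genes was 1455 to 1653 CPM in WT and 1273 to 1404 CPM in Q331K.

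**Figure D2:**
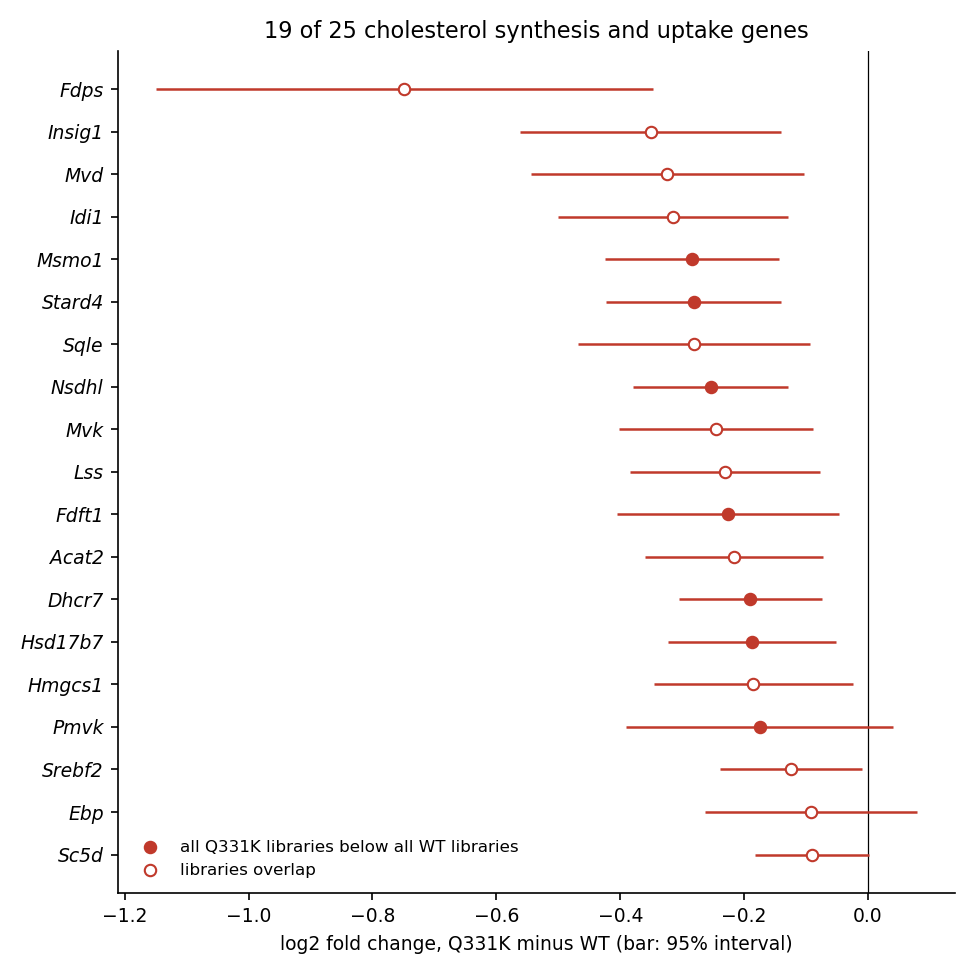
Log2 fold change (Q331K minus WT, horizontal axis) of 19 of the 25 cholesterol synthesis and uptake genes, those named in the text, with 95% intervals from edgeR as bars. Filled points mark the 7 genes whose Q331K libraries all lie below all WT libraries, and all 19 points lie left of 0.

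The early enzymes make mevalonate and its isoprenoid products. Hmgcs1, which makes HMG-CoA, was at 234, 256, 264, 286 and 249 CPM in WT and at 204, 231 and 235 (lowest, median, highest) in Q331K. The groups met at their edges (-0.19 ± 0.08, unadjusted p = 0.0252). The mevalonate kinase Mvk (-0.25 ± 0.08), the decarboxylase Mvd (-0.32 ± 0.11) and the isomerase Idi1 (15.3 ± 1.23 and 12.3 ± 1.39 CPM; -0.31 ± 0.09) had intervals below 0. Pmvk, the next kinase after Mvk, had no overlap between groups although its interval held 0 (-0.17 ± 0.10). Fdps, the synthase of farnesyl diphosphate, had the largest difference, from 2.52 ± 0.45 CPM (SD, n = 5) to 1.5 ± 0.45 (SD, n = 6), or -0.75 ± 0.19. Processed copies of this gene can share its reads, so its level and its difference are less certain.

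The enzymes that make squalene and close its rings followed. Fdft1, squalene synthase, was 79.9 to 90.7 CPM in WT and 66.2 to 78.2 in Q331K, with no overlap (-0.23 ± 0.09). Sqle, the epoxidase that is a second control point, was 54.2 to 63.7 and 43.4 to 54.3 CPM (-0.28 ± 0.09, unadjusted p = 0.00496). Its highest Q331K library just reached the lowest WT library. The lowest were Q331K replicates 2 and 6, at 43.4 and 43.8 CPM, which were also lowest in myelin genes. The cyclase Lss was at -0.23 ± 0.07.

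The enzymes that turn lanosterol into cholesterol held 4 of the 7 genes without overlap. Msmo1, a methyl sterol oxidase, stood at 77.4, 76.9, 80.9, 88.3 and 75.6 CPM in WT and at 60.4, 66.7 and 69.5 (lowest, median, highest) in Q331K. All 6 Q331K libraries lay below all 5 WT libraries (-0.28 ± 0.07, unadjusted p = 0.000332, adjusted p = 0.415 in edgeR). Nsdhl, a sterol dehydrogenase, was 21.2, 19.5, 22.7, 22.5 and 19.1 CPM in WT and 17, 17.5 and 18.4 in Q331K (-0.25 ± 0.06, unadjusted p = 0.000316, adjusted p = 0.415 in edgeR). Hsd17b7, a keto-reductase, and Dhcr7, the reductase that ends one branch, were both at -0.19 (SE 0.07 and 0.06). The smallest shifts were those of the desaturase Sc5d (-0.09 ± 0.04, unadjusted p = 0.0545) and the isomerase Ebp (-0.09 ± 0.08, unadjusted p = 0.276).

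Regulators and carriers lay on the same side. Insig1 was 82.8 ± 5.90 CPM in WT (SD, n = 5) and 64.9 ± 9.84 in Q331K (SD, n = 6), or -0.35 ± 0.10. Stard4, a cytosolic sterol carrier, was 35.6 to 41.4 and 28.4 to 35.5 CPM, with no overlap (-0.28 ± 0.07), and limma-voom called it (adjusted p = 0.0461). Srebf2 itself differed less (-0.12 ± 0.06, unadjusted p = 0.0344).

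Promoters of the list were read from RefSeq (GRCm38.p6), which gave 250 bases before to 50 bases after the start site for 17 of the 25 genes. A first motif, TCACNCCAC, one spelling of the sterol regulatory element bound by SREBP2, was found on either strand in 1 of the 17 (5.88%, Hmgcs1), against 1.43% of the 12833 tested genes with a promoter. After that result a second motif was searched, CCAAT, the site of the factor NF-Y, which is known to act beside SREBP2 at sterol genes. It was found on either strand in 16 of the 17 promoters (94.1%; Acat2 was the exception), against 42.1% of promoters of tested genes and 41.1% of all 27025. These are descriptions of letters in a window, with no test, and the second motif was chosen after the first was known. Stretches of 4 promoters are shown, 3 of genes without overlap between groups and the 1 with both motifs, each on the strand of its gene from 5′ to 3′, with the motif or its reverse complement in capitals.
Nsdhl promoter: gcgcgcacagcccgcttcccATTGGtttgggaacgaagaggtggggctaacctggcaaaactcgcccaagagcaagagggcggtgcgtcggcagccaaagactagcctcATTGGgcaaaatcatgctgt
Msmo1 promoter: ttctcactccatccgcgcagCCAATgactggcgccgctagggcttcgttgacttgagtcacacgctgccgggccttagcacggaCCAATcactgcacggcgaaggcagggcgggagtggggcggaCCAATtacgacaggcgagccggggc
Dhcr7 promoter: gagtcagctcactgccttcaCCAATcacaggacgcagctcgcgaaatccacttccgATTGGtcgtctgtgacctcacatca
Hmgcs1 promoter: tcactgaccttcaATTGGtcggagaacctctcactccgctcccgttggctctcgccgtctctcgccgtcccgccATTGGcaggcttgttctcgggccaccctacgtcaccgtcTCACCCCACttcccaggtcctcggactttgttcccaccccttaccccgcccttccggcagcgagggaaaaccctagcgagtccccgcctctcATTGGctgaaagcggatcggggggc
In Nsdhl (chrX:72918392-72918520, plus strand) both matches read ATTGG, the reverse complement. In Msmo1 (chr8:64733609-64733758, minus strand) there are 3 forward matches. Dhcr7 (chr7:143830109-143830189, plus strand) has 1 of each. Hmgcs1 (chr13:119690101-119690330, plus strand) has 3 reverse matches and the first motif, TCACCCCAC.

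Between the combined genotype and libraries labelled TMEM106B-/-, 20 of the 25 cholesterol genes were below 0, 1 had an unadjusted p under 0.05 and lower, and the median was -0.05 (-0.10 without TMEM106B-/- replicate 5, -0.07 without combined replicate 4 and 0.00 without combined replicate 3). The background there was 49% below 0 and 2.24% lower at that p. All 25 differences between the backgrounds were above 0, against 48.8% of all genes. At an unadjusted p under 0.05 were 6, against 2.51% of all genes, and none passed an adjusted p of 0.05. The differences subtract the Q331K minus WT values by which the list was picked out. Their direction is therefore not independent of that choice. Measured against the WT mean, the scores of libraries labelled TMEM106B-/- were already -0.385 to -0.0799, and those of the combined genotype -0.376 to -0.0994. All of them lay below the lowest WT score, -0.078, the highest TMEM106B-/- score only just. A score below all WT libraries was therefore not particular to Q331K. The RNA of Tmem106b does not check those labels, since it was 188 ± 4.69 CPM in WT (SD, n = 5), 184 ± 6.66 in libraries labelled TMEM106B-/- (SD, n = 5) and 200 ± 13.5 in the combined genotype (SD, n = 5). In liver, Q331K against WT, 20 of the 25 genes were above 0 (48.8% of all liver genes were) with a median of 0.14, and 1 passed in edgeR (0.263% of all liver genes did), Dhcr7 (0.73 ± 0.15, adjusted p = 0.0474).

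**Figure D3:**
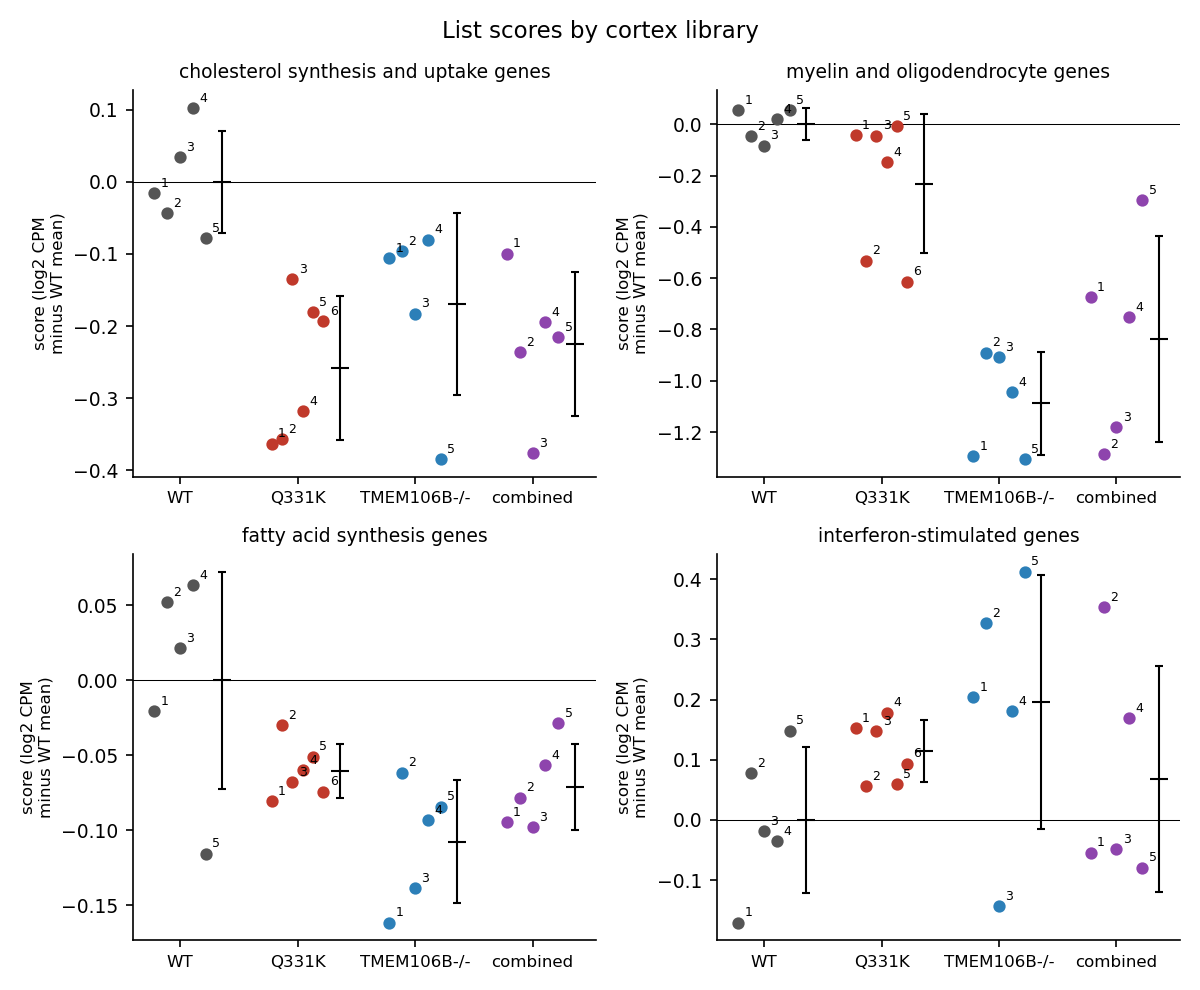
Scores of 4 gene lists (mean log2 CPM minus the WT mean, vertical axes) in each cortex library; numbers are replicate numbers, and the bars beside the points are mean and SD. All 6 Q331K scores for cholesterol genes lie below the 5 WT scores, as do all scores of both other genotypes. Among Q331K libraries the myelin scores are low in replicates 2 and 6.

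Genes of fatty acid synthesis showed a smaller shift in the desaturases. Of 18 genes 14 were below 0 (48.6% of all genes were), 4 of them at an unadjusted p under 0.05 (2.26% of all genes were lower at that p), and the median was -0.07. Fads2, which desaturates polyunsaturated fatty acids, was 95.5, 98.6, 102, 109 and 96.8 CPM in WT and 82.5, 87.2 and 92.2 in Q331K, with no overlap (-0.21 ± 0.05, adjusted p = 0.341 in edgeR). DESeq2 (adjusted p = 0.0391) and limma-voom (adjusted p = 0.0289) called it. The stearoyl-CoA desaturases Scd1 (217 ± 11 and 190 ± 4.74 CPM; -0.20 ± 0.05) and Scd2 (1107 ± 30.6 and 1012 ± 46.1 CPM; -0.13 ± 0.04) also had no overlap. Scd2 was 957 CPM in Q331K replicates 2 and 6, the libraries lowest in myelin genes, and 1013 to 1059 in the other Q331K libraries. Fasn, the fatty acid synthase, was at -0.17 ± 0.09, Acly at -0.07 ± 0.03 and Srebf1 at -0.13 ± 0.08, with intervals that held 0. Scd1 was at 0.16 ± 0.05 between the combined genotype and libraries labelled TMEM106B-/-, and the difference between backgrounds was 0.36 ± 0.08 (unadjusted p = 7.84e-05, adjusted p = 0.715 in edgeR). The libraries labelled TMEM106B-/- were already at 141 to 171 CPM and the combined genotype at 159 to 196, against 204 to 227 in WT.

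Myelin genes were also lower on average, most of all in 2 of the 6 Q331K libraries. All 29 genes of the myelin and oligodendrocyte list were below 0, against 48.6% of all genes, with a median of -0.23 as large as that of the cholesterol genes. Of the 29, 3 were lower at an unadjusted p under 0.05 (Aspa, Olig1 and Tmem125). That is 10.3%, against 2.26% of all genes and 84% of the cholesterol genes. Mbp, myelin basic protein, was 1580, 1339, 1302, 1362 and 1444 CPM in WT. In Q331K replicates 1 to 6 it was 1435, 986, 1451, 1240, 1460 and 911 CPM, so 2 libraries were far below the others and 3 stood within the WT range (-0.17 ± 0.19). The list scores were -0.08 to 0.06 in WT and -0.04, -0.53, -0.04, -0.15, -0.01 and -0.61 in Q331K replicates 1 to 6. Without replicates 2 and 6, an alternative chosen after these values were seen, the myelin median was -0.07 and the cholesterol median -0.22. With the myelin score as a covariate, also chosen then, the cholesterol median was -0.18. In bulk tissue fewer cells of a type and less RNA per cell cannot be told apart.

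Of the single myelin genes, Aspa, which breaks down N-acetylaspartate in oligodendrocytes, was 23.1 ± 2.63 CPM in WT (SD, n = 5) and 18.7 ± 2.61 in Q331K (SD, n = 6), or -0.30 ± 0.11. Olig1, a transcription factor of the oligodendrocyte lineage, had no overlap (65.7 to 70.5 and 50.8 to 65.5 CPM; -0.17 ± 0.07). Olig1 and Olig2 also stand on the list of precursor markers, where 9 of 14 were above 0 (51.4% of all genes were), with a median of 0.04. Between the combined genotype and libraries labelled TMEM106B-/- the myelin list had 28 of 29 genes above 0, a median of 0.30 and 8 at an unadjusted p under 0.05 and higher (2.71% of all genes). The 5 combined scores, measured against the mean of libraries labelled TMEM106B-/-, were 0.41, -0.20, -0.09, 0.34 and 0.79, so 2 lay below that mean, and without combined replicate 5 the median was 0.13. Both genotypes were far below WT in these genes, with mean scores of -1.09 (libraries labelled TMEM106B-/-) and -0.84 (combined). All 29 differences between backgrounds were above 0, 14 of them at an unadjusted p under 0.05, and none passed an adjusted p of 0.05 in edgeR. Of all genes 48.8% were above 0 in that difference, and 2.51% of all genes were above 0 at that p. The difference subtracts the Q331K minus WT values, all 29 of them below 0, so its sign is not independent of them.

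**Figure D4:**
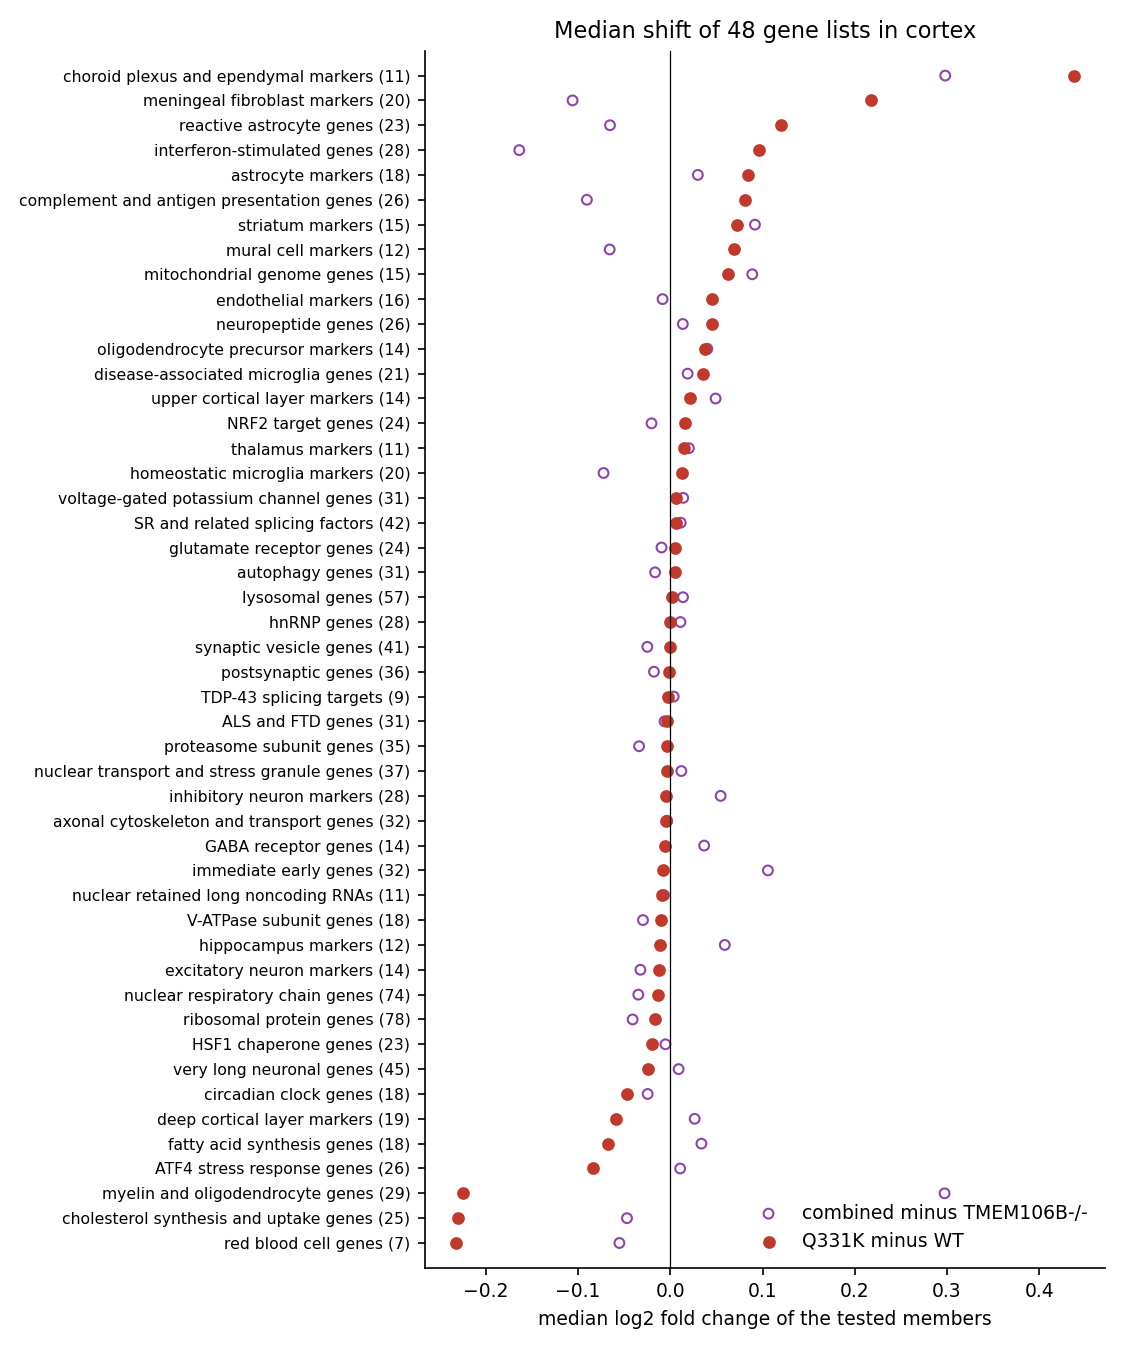
Median log2 fold change (horizontal axis) of the tested members of 48 gene lists, with the number of tested members in brackets; filled points are Q331K minus WT and open points the combined genotype minus libraries labelled TMEM106B-/-. Most filled points lie near 0, with cholesterol, myelin and red blood cell genes lowest and choroid plexus and meningeal markers highest.

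Most other groups lay close to 0. Of the 48 lists, 33 had a median within 0.05 of 0. Of 31 genes linked to ALS and FTD only Tardbp had an unadjusted p under 0.05 (0 lower and 1 higher of 31), and the median was 0.00. Grn, encoding progranulin, was at -0.07 ± 0.06 and Stmn2, a neuronal gene whose splicing TDP-43 guards in human cells, at -0.05 ± 0.06. All 31 had intervals within 1.5-fold. None of the 28 hnRNP genes had an unadjusted p under 0.05, and all 28 intervals lay between 20% lower and 25% higher. Gene counts do not measure splicing. The 9 genes known as TDP-43 splicing targets in mouse, Sort1 (-0.04 ± 0.04) and Poldip3 (0.05 ± 0.04) among them, had no member at an unadjusted p under 0.05, and all 9 intervals lay within 1.5-fold.

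Long neuronal genes, whose introns TDP-43 is known to bind, did not stand apart. The 45 genes of this list had a median of -0.02, and 29 were below 0, against 48.6% of all genes. At an unadjusted p under 0.05 was 1 (Fgf14, -0.10 ± 0.05), and all 45 intervals lay within 1.5-fold. By genomic span, the median log2 fold change was 0.00 for 8615 genes under 10 kb and 0.00 for 568 genes over 300 kb, and between -0.00209 and 0.00586 in all 5 classes of span. Synaptic vesicle genes (41 genes, median 0.00), postsynaptic genes (36, 0.00), lysosomal genes (57, 0.00), autophagy genes (31, 0.00) and proteasome subunits (35, 0.00) had medians at 0, and all 31 autophagy intervals lay between 20% lower and 25% higher.

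Medians of glial and immune lists were small, moved with single libraries, and held no gene that passed. Of 28 interferon-stimulated genes 24 were above 0 (51.4% of all genes were), with a median of 0.10 and 0 at an unadjusted p under 0.05. All 6 Q331K scores, 0.06 to 0.18, were above the WT mean and overlapped the WT range of -0.17 to 0.15. The same list had a median of -0.16 between the combined genotype and libraries labelled TMEM106B-/-, which was -0.06 without TMEM106B-/- replicate 5 and -0.11 without combined replicate 5. Reactive astrocyte genes were above 0 in 19 of 23 (median 0.12), with Srgn, the core protein of a proteoglycan, apart between groups (3.25 and 4.34 CPM; 0.42 ± 0.13), and astrocyte markers in 16 of 18 (median 0.08). Complement and antigen presentation genes were above 0 in 21 of 26 (median 0.08). Microglial markers were near 0 (11 of 20 above, median 0.01). Genes of the ATF4 stress response were below 0 in 21 of 26 (48.6% of all genes were, median -0.08), with Vldlr, a lipoprotein receptor, at -0.14 ± 0.05 (unadjusted p = 0.00533). WT replicate 1 had the lowest WT score in the interferon (-0.17), reactive astrocyte (-0.34), complement (-0.44) and meningeal (-1.03) lists. The part of its tissue markers in these medians was not tested. The reactive astrocyte median was 0.08 when that library was left out. Leaving out WT replicates 2, 3 or 5, each alone, gave 0.21, 0.19 and 0.31, and leaving out Q331K replicates 5 or 6 gave 0.23 and 0.21. With WT replicate 1 left out the complement median was 0.04, and with Q331K replicate 4 left out it was 0.02. Leaving out WT replicate 5 gave 0.14, and leaving out WT replicate 2 gave 0.16. The astrocyte median was 0.05 without Q331K replicate 2, and the ATF4 median -0.04 without WT replicate 3. The interferon median, 0.09 to 0.13, moved less.

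Markers of cortical neurons were present in every WT and Q331K library, and markers of neighbouring tissue varied between libraries. Slc17a7, the vesicular glutamate transporter of cortical excitatory neurons, was 1070 to 1200 CPM in WT and 1060 to 1230 in Q331K, and the lowest level of Tbr1, Cux2, Gad1 and Neurod6 in any of these 11 libraries was 83.6 CPM (Neurod6, WT). Of 20 meningeal markers 19 were above 0, against 51.4% of all genes, with a median of 0.22. In sum they were 188 to 478 CPM in WT, lowest in replicate 1, and 281 to 561 in Q331K. Their median was 0.05 without WT replicate 1, 0.11 without Q331K replicate 4, 0.14 without Q331K replicate 2, and 0.33 to 0.37 without WT replicate 2, WT replicate 5 or Q331K replicate 3. With the myelin score as a covariate it was -0.01. Choroid plexus markers (10 of 11 above 0, median 0.44) were 14.6 to 29.4 and 13.4 to 41.6 CPM, with a median of 0.25 without Q331K replicate 3. Striatum markers reached 930 CPM in Q331K replicate 3 against at most 641 in WT, with Drd1, which marks its neurons, at up to 35.2 CPM against 19.1. Deep layer markers were lowest in Q331K replicate 6 (score -0.42). With deep layer, striatum and meninges scores as covariates the cholesterol median was -0.20, and without the 4 cortices most extreme in such markers it was -0.26. Both alternatives were chosen with the data known.

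Genes around Tardbp were examined, since a knock-in can carry linked sequence. Within 5 Mb of Tardbp 12 of 100 tested genes had an unadjusted p under 0.05 (12%), against 5.54% of the 1083 others on chromosome 4 and 4.88% of all. None had groups that did not overlap, apart from Tardbp, which was not counted. The smallest p was that of Disp3, a membrane protein of the patched family, 41.5 to 44.4 CPM in WT and 43.5 to 61.1 in Q331K (0.29 ± 0.08). Ajap1, an adherens junction protein, followed (0.16 ± 0.05). Between the combined genotype and libraries labelled TMEM106B-/-, 8 of the 100 genes had an unadjusted p under 0.05 in edgeR, against 4.96% of all. The strain of the flanking sequence was not tested.

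The intervals bound what the comparison could have missed. The 95% interval of the log2 fold change lay wholly within 1.5-fold of no change for 16008 of 21248 genes (75.3%), between 20% lower and 25% higher for 53.8% and within 2-fold for 92.7%. At 16 CPM and over, 8623 genes, the shares were 99.0%, 92.7% and 99.9%. Under 1 CPM only 11.9% of 4369 genes were held within 1.5-fold and 68.4% within 2-fold, and the median half-width there was 0.62 on the log2 scale. The median half-width was 0.21 on the log2 scale, a factor of 1.16. Of the 25 cholesterol genes 22 had intervals within 1.5-fold and 5 within the narrowest bound. Intervals are per gene and not simultaneous.

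**Figure D5:**
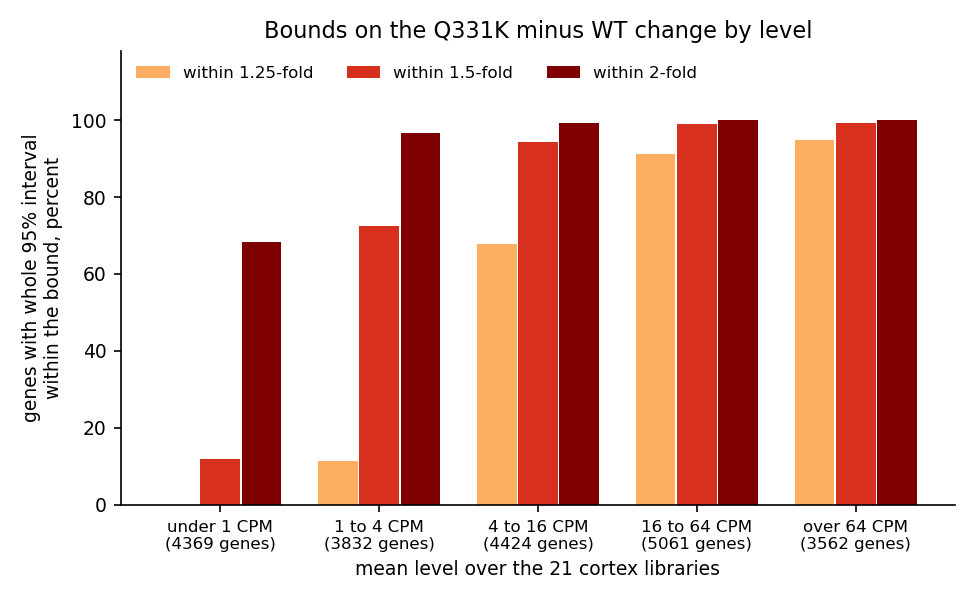
Share of tested genes (percent, vertical axis from 0) whose whole 95% interval of the Q331K minus WT change lies within each of 3 bounds (20% lower to 25% higher, 1.5-fold, 2-fold), by mean level over the 21 cortex libraries (horizontal axis). Over 64 CPM 94.9% lie within the narrowest bound, and under 1 CPM 0% do.

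The comparison of the combined genotype with libraries labelled TMEM106B-/- called 0 genes in edgeR (1053 at an unadjusted p under 0.05, 4.96%), 0 in DESeq2 and 0 in limma-voom. The difference between both backgrounds also called 0 in edgeR (972 at an unadjusted p under 0.05, 4.57%), 0 in DESeq2 and 0 in limma-voom. Jun had the smallest p of that difference (0.50 ± 0.10, unadjusted p = 6e-05, adjusted p = 0.715 in edgeR). It was lower in Q331K than in WT and at 0.12 ± 0.07 on the other background. There the libraries labelled TMEM106B-/- were already at 20.1 to 27.2 CPM, against 26.4 to 28.5 in WT. Slc44a1, a choline transporter, was next to Scd1 and Mid1 in that order (0.25 ± 0.06).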

How the data were processed

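Gene expression was measured by RNA sequencing of total RNA from cortex, with a directional library kit per the labels' protocols. The authors deposited raw counts, 1 whole number per gene and library, that had not been normalized. Reads had passed Trim Galore, cutadapt and FastQC, with GRCm38 and mm10 named as builds, per the submitters' processing notes. Which program aligned the reads and which counted them, and with what strand setting: not given in the sources used here. All 55536 gene identifiers matched GENCODE M21 (GRCm38), and 1 cortex column with no sample in the labels was not used.

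The members and gene lists were chosen with earlier results of these data known. The 48 lists hold 1175 gene names. The 21 cortex libraries were fitted together, with a mean for each genotype, in edgeR 4.0.16 (R 4.3.3): filterByExpr (minimum count 10, minimum total count 15) kept 21248 genes, libraries were scaled by TMM, and the robust quasi-likelihood test was two-sided with Benjamini-Hochberg adjustment over all genes and 17 residual degrees of freedom. Intervals are Wald intervals from that fit at 95%, and 1 tested gene had none and is counted as outside every bound. Scores used log2 CPM with a prior count of 1. Liver (16 libraries, 16710 genes) was fitted alone. The pipeline was tested on simulated data.

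The 11 libraries held 30.0 to 39.4 M counts, and all cortex libraries 28.8 to 46.3 M. The common biological coefficient of variation was 0.103, so the spread between libraries limits precision more than depth at all but low levels. No pair of libraries agreed within sampling noise (chi-square per degree of freedom 3.86 to 17.5 within a group).

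Some list members are counted in the lists but not reported by name here. Named were Tardbp, the 12 genes per direction with the smallest p, 4 genes per list, 6 near Tardbp and 6 of the difference between backgrounds. All members of the cholesterol, fatty acid, myelin, ALS and FTD, and splicing target lists were added after their values were seen, as was the choice of cholesterol genes as a main result. The alternatives were DESeq2 1.42.0, limma-voom (limma 3.58.1), RLE size factors, no filter, a replicate block, only the compared groups, leaving out each library, and adding 1 surrogate variable with sva 3.50.0. Chosen after seeing the data were leaving out 4 cortices with extreme tissue markers (WT replicate 1, Q331K replicate 3, TMEM106B-/- replicate 5, combined replicate 2), marker scores as covariates, the myelin score as a covariate, and leaving out Q331K replicates 2 and 6. Figures were drawn with matplotlib.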

Additional observations from a re-analysis of the deposited data

Results flagged for a closer look

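A single library stood apart from the rest of its group in 5 of 82 groups examined. Chance alone flags about 1 in 20 groups, so this is close to the number that chance gives. Q331K replicate 4 was apart in the score of the ATF4 stress response genes (-0.00106, nearest to the WT mean) and of the complement and antigen presentation genes (0.52, the highest). Scd1 was highest in Q331K replicate 5, at 199 CPM, and still below all WT libraries. Dhcr7 was highest in WT replicate 3, at 36.8 CPM. Hmgcs1 was lowest in Q331K replicate 2, at 204 CPM.

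In other results all libraries of a group lay on one side of the reference mean in one contrast and opposite in another. The difference was not tested for the scores. The mean score of fatty acid synthesis genes was -0.0605 in Q331K against WT cortex, 0.04 in the combined genotype against libraries labelled TMEM106B-/-, and 0.67 in Q331K against WT liver. In cortex the Q331K scores, -0.08 to -0.03, lay within the WT range of -0.116 to 0.063. The list median between the combined genotype and libraries labelled TMEM106B-/-, 0.03, was -0.002 without TMEM106B-/- replicate 1. It was 0.01 without combined replicate 1, and 0.02 without combined replicate 5 or TMEM106B-/- replicates 3 or 5. For interferon-stimulated genes the mean score was 0.11 in Q331K against WT cortex and -0.20 in liver. Scd1 was at -0.20 in Q331K against WT and at 0.16 in the combined genotype against libraries labelled TMEM106B-/-, and Aspa at -0.30 and 0.33. The tests of these differences gave unadjusted p = 7.84e-05 for Scd1 and 0.000557 for Aspa, with adjusted p = 0.715 and 0.853 in edgeR. Libraries labelled TMEM106B-/- were already below WT in both genes (Scd1 141 to 171 against 204 to 227 CPM, Aspa 10.7 to 12.9 against 21.2 to 27.6). All combined libraries were below all WT libraries too (Scd1 159 to 196 CPM, Aspa 11.6 to 18.2).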

How the results depend on the processing

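The count of called genes in Q331K against WT was 0 in edgeR and 0 with each library left out, with RLE size factors, with no filter on low counts and with 1 surrogate variable. DESeq2 called 9 genes and limma-voom 11. A fit of the compared groups alone called 2 (Gid4 and Jun), and leaving out the 4 cortices of extreme tissue markers gave 2 (Fads2 and Jun). With the replicate number as a block it was 1 (Car12). The numbers gave no sign of pairing WT with Q331K libraries: of 5 same-numbered pairs 1 had a correlation over 0.1 (range -0.27 to 0.16). Of the WT libraries 0 correlated best with their own number. Same-numbered pairs that involve the other genotypes ran from -0.391 to 0.365. Whether libraries shared a litter or a batch was not tested. The difference between backgrounds called 2 genes without the 4 extreme cortices (Tmem98 and Jun) and 0 to 1 with a library left out, the 1 appearing without TMEM106B-/- replicate 5 and without combined replicate 4. Tardbp was 0.18 in limma-voom with an adjusted p of 0.0461, and 0.16 to 0.20 over its 22 alternatives. The count of cholesterol genes at an unadjusted p under 0.05 and lower was 16 to 23 and their median -0.26 to -0.18 over 22 alternatives, and genes held within 1.5-fold numbered 15262 to 16548. The myelin median was -0.27 to -0.07, nearest 0 without Q331K replicates 2 and 6. With the myelin score as a covariate the deep layer median was at 0.11. Mbp was then at 0.08, but that score is an average of myelin genes and so takes out much of their shift by itself. The median of all genes stayed between 0.00 and 0.00357 under the 11 settings that kept or dropped several libraries. Where a call differs, the cause was not tested. Low levels limit the bounds, with 0% of genes under 1 CPM held between 20% lower and 25% higher.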

Other observations

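Other lists gave values with few single genes behind them. Of all genes tested 51.4% were above 0 and 48.6% below, and 0.353% had every Q331K library above every WT library. Of 15 genes of the mitochondrial genome 14 were above 0 in Q331K cortex (median 0.06), and mt-Atp6, a subunit of the ATP synthase, had no overlap between groups (8.49 and 9.90 CPM; 0.22 ± 0.10, unadjusted p = 0.0411). The 15 genes together held 34330 to 36760 CPM in WT, so mt-Atp6 was a very small part of them. Why its count was so low was not tested, and its level and difference are less certain. Among 26 neuropeptide genes 16 were above 0 (median 0.04). Sst, somatostatin, was 105 CPM in WT and 120.1 in Q331K with no overlap (0.19 ± 0.13), while Cort, the related cortistatin, was 5.13 and 3.96 CPM (-0.37 ± 0.14, unadjusted p = 0.0115). Scg2, a secretogranin, was at 0.18 ± 0.07. Of 21 genes of disease-associated microglia 13 were above 0, with the protease gene Ctsz apart between groups (20.2 and 22.3 CPM; 0.14 ± 0.05) and the receptor gene Trem2 on the other side (4.26 and 3.45 CPM; -0.30 ± 0.13). None of these genes passed an adjusted p of 0.05 in edgeR. Circadian clock genes were below 0 in 15 of 18 (median -0.05), with 0 at an unadjusted p under 0.05.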
